A study of Homo sapiens with 6 samples.

Results

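The 36 genes described here encode proteins of homologous recombination, of the Fanconi anaemia pathway and of the checkpoint kinases that act with them. They were chosen by name, with earlier results of these data known. Each symbol matched 1 of the 58302 gene rows of the deposited table. All 36 passed the filter on low counts that left 15945 genes for testing. The cells were PC-3, an established human prostate cancer line from a bone metastasis. The 3 vector libraries came from cells that received a blank lentivirus, and the 3 BHLHE22 libraries from cells that received a lentivirus overexpressing the transcription factor BHLHE22; both groups had therefore been exposed to a lentivirus. Neither the promoter of the construct, nor whether the cells were 1 clone, nor whether libraries came from separate cultures is given in the sources used here, so the p-values rest on variation among these libraries alone, and that variation may be technical.

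Homologous recombination repairs a broken chromosome by copying the intact sister, and it is therefore used mainly after DNA has been replicated. The MRE11-RAD50-NBN complex and its partner RBBP8 start to resect the broken end, EXO1 extends the single-stranded tail, and BRCA1-BARD1, PALB2 and BRCA2 prepare it for strand exchange, helped by the paralog complexes. The Fanconi pathway deals with crosslinks between DNA strands: a core ubiquitin ligase with its conjugating enzyme UBE2T modifies the FANCD2-FANCI pair, which directs incision and then recombination. Defects of several of these genes occur in advanced prostate cancer and make cells sensitive to PARP inhibitors. Many genes of this group are transcribed most in cells that are replicating DNA.

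Total counts per library were 12186723 to 15949537, and the lowest count of any of the 36 genes was 35 (FANCF, vector replicate 1). BHLHE22 itself had 1 read in each vector library and 92 to 133 in the BHLHE22 libraries. Replicates were not copies of one another: comparing counts gene by gene, chi-square over its degrees of freedom was 11 to 22.5 within groups, against 69.2 to 136 between groups. The epithelial keratin genes KRT8, KRT18 and KRT19 were present in all libraries, and KLK3, a luminal prostate gene that PC-3 is known to lack, had 0 counts in each. The 6 blood markers summed to 2.12 to 2.61 CPM (library-scaled read counts, defined below) in vector and 1.08 to 1.4 CPM in BHLHE22 libraries, with TYROBP, CD3E and HBB at 0 throughout. The 3 endothelial markers summed to 96.8 to 105 CPM in vector and 63.8 to 75.9 CPM in BHLHE22 libraries, with CDH5 at 0 in 5 of the 6 libraries and PECAM1 and KDR present in all. The 4 fibroblast markers summed to 63.0 to 73.9 CPM in vector and 49.3 to 51.3 CPM in BHLHE22 libraries, nearly all of it COL1A1.

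The repair genes were mostly higher in BHLHE22 cells. Of the 36 genes, 27 rose (75.0%), ATM alone fell, and 8 did not pass the test. Among all tested genes 25.1% were called higher, 24.3% lower and 49.4% in either direction. The median log2 fold change of the 36 genes was 0.76, a 1.69-fold difference, against 0.00 over all tested genes, and single values ran from -0.89 for ATM to 2.15 for BRIP1. A rise of at least 2-fold was found for 15 of the 36 genes, where 8.17% of all tested genes had one. All 3 BHLHE22 libraries lay above all 3 vector libraries for 28 of the 36 genes, against 30.6% of tested genes. CPM are read counts scaled to a common library size, with the sizes adjusted by TMM, and a gene was called at a Benjamini-Hochberg adjusted p under 0.05 in edgeR's quasi-likelihood test over all 15945 genes. With unscaled library sizes the median of all tested genes shifted by 0.15 on the log2 scale, so changes are relative to the typical gene; 5128 genes were then called higher and 2890 lower, against 3996 and 3880, and 31 of the 36 genes rose. In these bulk samples, more cells in a given state and more RNA per cell cannot be told apart.

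**Figure D1:**
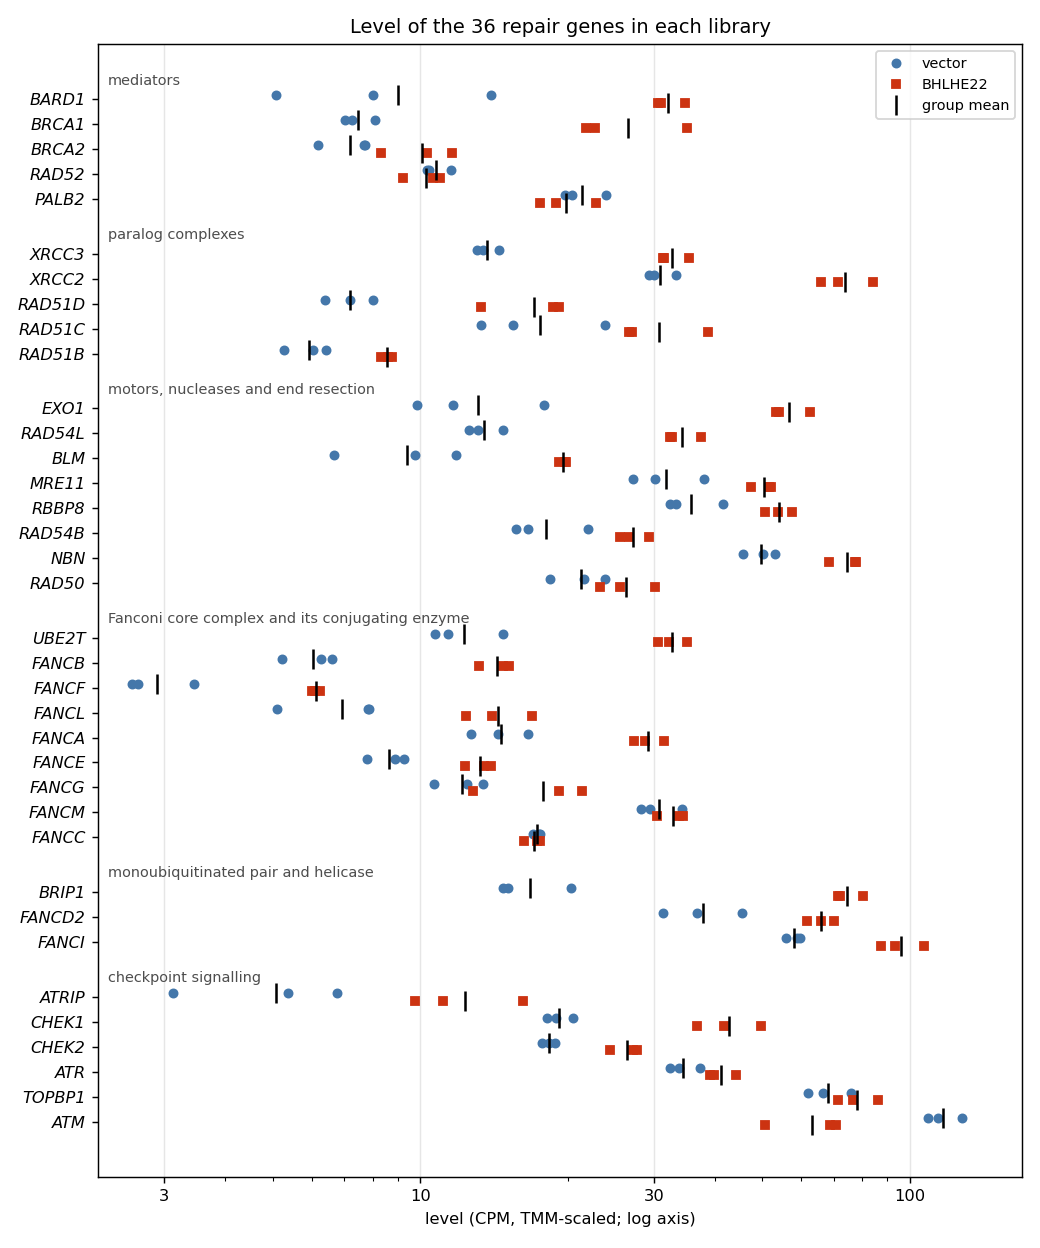
Level of each of the 36 genes in each library, in CPM on a log axis, grouped by role; circles are the 3 vector libraries, squares the 3 BHLHE22 libraries and vertical ticks the group means. For 28 genes every square lies to the right of every circle, and for ATM, in the bottom row, every square lies to the left.

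**Figure D2:**
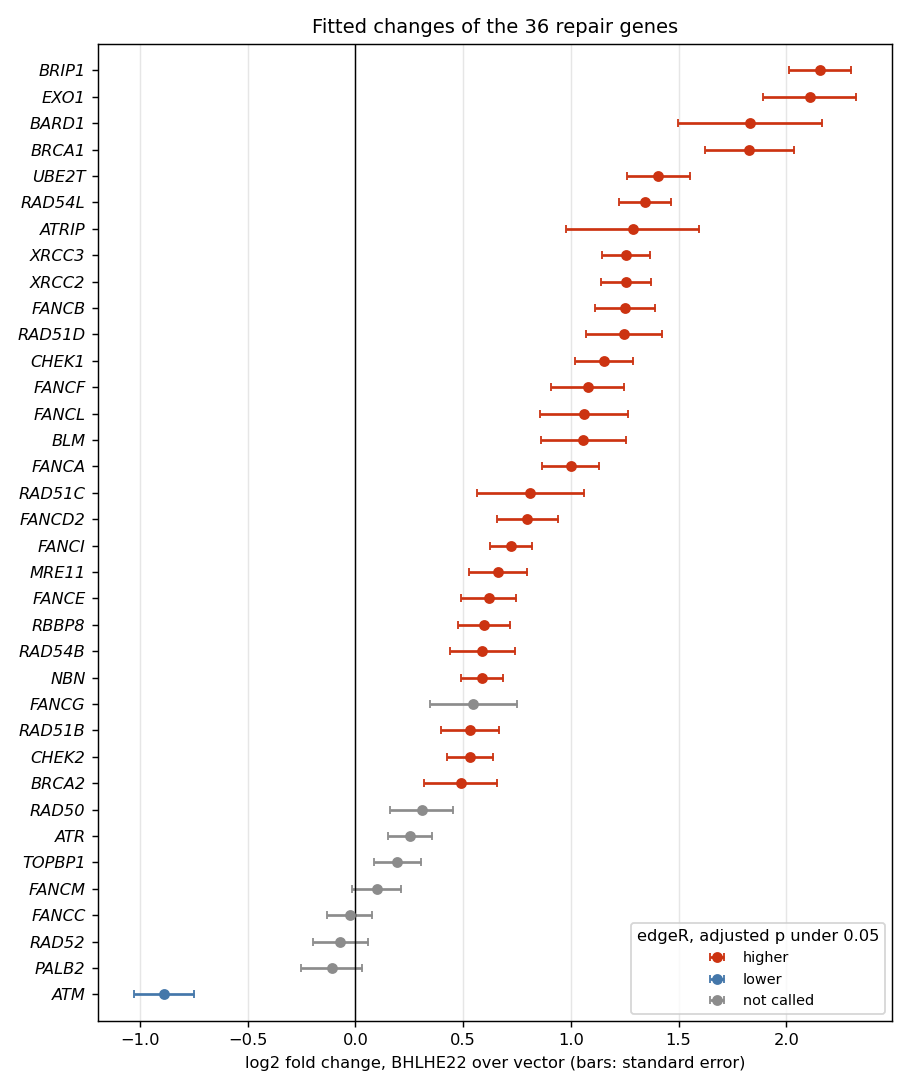
Fitted log2 fold change of BHLHE22 over vector libraries (points) with its standard error (bars) for the 36 genes in order of size; colour gives the edgeR call. BRIP1 (2.15) and EXO1 (2.11) stand at the top and ATM (-0.89) at the bottom, with the 8 genes that were not called between 0.55 and -0.11.

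Among the mediators, the BRCA1-BARD1 ligase pair rose and the PALB2 and RAD52 values did not pass the test. BRCA1 (ENSG00000012048, GRCh38 chromosome 17, 43044295 to 43170245), which promotes resection and recruits PALB2, had 7.03, 8.09 and 7.25 CPM in vector replicates 1 to 3 and 21.8, 35.1 and 22.7 CPM in the BHLHE22 replicates. The groups were far apart, with BHLHE22 replicate 2 above its 2 companions. The rise was 3.55-fold (log2 fold change 1.83, SE 0.21, adjusted p = 0.000463). BARD1 (ENSG00000138376, chromosome 2, 214725646 to 214809711), the obligate RING partner of BRCA1, had 5.07, 8.02 and 13.9 CPM in vector and 30.7, 31.1 and 34.7 CPM in BHLHE22 libraries. Its vector libraries were spread widely and replicate 3 was the highest of them, yet none reached the BHLHE22 range. The log2 fold change of BARD1 was 1.83 (SE 0.34, adjusted p = 0.00473).

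BRCA2, which acts on resected DNA, rose less, from 7.19 ± 0.87 to 10.1 ± 1.7 CPM (SD, n = 3; log2 fold change 0.49, adjusted p = 0.0446 in edgeR). That call was marginal: the adjusted p was 0.0714 in DESeq2 and 0.0632 to 0.125 when any 1 vector library was left out, 0.123 without BHLHE22 replicate 1 and 0.0986 without BHLHE22 replicate 3. PALB2, the bridge between BRCA1 and BRCA2, was at 21.4 ± 2.3 CPM in the vector group and 19.8 ± 2.8 CPM in the BHLHE22 group (adjusted p = 0.551). RAD52, an annealing protein, had 10.8 ± 0.7 and 10.3 ± 0.9 CPM (adjusted p = 0.677). Exons of RAD52 overlap those of AC004803.1 on the same strand, which had 79 and 151 counts, against 454 and 443 for RAD52. AC004803.1 was itself called higher (log2 fold change 0.87), so reads of RAD52 may be shared with a rising gene. The log2 fold changes of PALB2 and RAD52, -0.11 and -0.07, changed sign with unscaled library sizes, to 0.04 and 0.07. Reads of BRCA1 may be shared with the lincRNA AC060780.1, whose exons overlap it on the same strand and which had 428 counts in vector and 281 in BHLHE22 libraries, against 315 and 1147 for BRCA1.

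All 5 paralog genes, whose products form complexes that help strand exchange, rose. XRCC2 had 30.1, 29.3 and 33.4 CPM in vector and 66.0, 71.3 and 84.2 CPM in BHLHE22 libraries (2.39-fold, SE 0.12 on the log2 scale, adjusted p = 0.000251). XRCC3 had 13.1, 13.5 and 14.5 CPM against 31.3, 31.4 and 35.4 CPM (also 2.39-fold, SE 0.11, adjusted p = 0.000204). For both genes the lowest BHLHE22 library was well above the highest vector library. RAD51D had 7.18, 6.39 and 8.03 CPM in vector and 13.3, 19.2 and 18.7 CPM in BHLHE22 libraries (2.37-fold, adjusted p = 0.00112), with BHLHE22 replicate 1 lower than its companions. RAD51B and RAD51C had smaller rises, by log2 fold changes of 0.53 (adjusted p = 0.0138) and 0.81 (adjusted p = 0.0303). RAD51C ran from 13.3 to 23.9 CPM in vector and from 26.7 to 38.6 CPM in BHLHE22 libraries. Its adjusted p was 0.0928 without vector replicate 1, 0.0833 without vector replicate 2 and 0.0890 without BHLHE22 replicate 3. With an offset for GC content and transcript length it was 0.0529, and that of RAD51B was 0.0598. Exons of XRCC3 overlap those of KLC1 on the opposite strand; KLC1 had 11064 counts in vector and 9154 in BHLHE22 libraries, far more than the 577 and 1429 of XRCC3, and its own log2 fold change was -0.31. Whether the counting kept strand is not given in the sources used here.

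Of the 8 motors, nucleases and resection genes, 7 rose and RAD50 did not pass. EXO1 (ENSG00000174371, chromosome 1, 241847967 to 241895148), the exonuclease of long-range resection, had 11.6, 9.86 and 17.9 CPM in vector and 54.1, 53.2 and 62.5 CPM in BHLHE22 libraries. The lowest BHLHE22 library was far above vector replicate 3, the highest of its group. The EXO1 rise was 4.31-fold (log2 fold change 2.11, SE 0.22, adjusted p = 0.000382). RAD54L, the motor that drives strand exchange, had 12.6, 13.1 and 14.8 CPM against 32.5, 37.5 and 32.7 CPM (2.54-fold, adjusted p = 0.000212). BLM, the helicase that dissolves recombination intermediates, had 9.76, 6.66 and 11.8 CPM against 19.8, 19.8 and 19.2 CPM (2.08-fold, adjusted p = 0.00369). RAD54L shares exons with LRRC41 on the opposite strand, which had 2582 counts in vector and 2216 in BHLHE22 libraries, against 569 and 1484 for RAD54L. The BLM values were nearly equal across BHLHE22 libraries and scattered across vector libraries.

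The sensing and early resection genes had fold changes below 2. MRE11, the nuclease of the break-sensing complex, rose from 31.8 ± 5.5 to 50.3 ± 2.5 CPM, and NBN, its regulatory subunit, from 49.6 ± 3.7 to 74.6 ± 5.2 CPM (SD, n = 3). MRE11 shares exons with ANKRD49 on the opposite strand, which was itself called higher, from 349 to 559 counts, against 1340 and 2174 for MRE11. RAD50, the ATPase of the same complex, had 21.3 ± 2.8 and 26.4 ± 3.5 CPM, and its groups overlapped (adjusted p = 0.115). With unscaled library sizes in edgeR the adjusted p of RAD50 was 0.0304. RBBP8, also called CtIP, rose by a log2 fold change of 0.60 and RAD54B by 0.59. The call of RAD54B ended with the offset for GC content and length (adjusted p = 0.0686). RAD54B shares exons on the same strand with FSBP, which had 597 counts in vector and 1324 in BHLHE22 libraries, against 758 and 1176 for RAD54B. FSBP was itself called higher, with a log2 fold change of 1.11, so reads of RAD54B may be shared with a rising gene.

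In the Fanconi core complex and its conjugating enzyme, 6 of 9 genes rose. UBE2T, the ubiquitin-conjugating enzyme of the pathway, led with 11.4, 10.7 and 14.8 CPM in vector and 32.2, 35.1 and 30.7 CPM in BHLHE22 libraries (2.65-fold, SE 0.15 on the log2 scale, adjusted p = 0.000365). FANCL, the catalytic RING subunit, had 7.87, 5.10 and 7.82 CPM against 16.9, 14.0 and 12.4 CPM (2.08-fold, adjusted p = 0.00406). The enzyme and the ligase subunit that uses it were thus both above every vector library in every BHLHE22 library. FANCB, a scaffold partner of FANCL, had 5.22, 6.60 and 6.27 CPM against 14.7, 13.2 and 15.2 CPM (2.38-fold, adjusted p = 0.000455). FANCF, an adaptor subunit, had 2.65, 2.58 and 3.45 CPM against 6.01, 6.10 and 6.24 CPM (2.11-fold, adjusted p = 0.00182). For both genes the groups were clear of each other and the BHLHE22 libraries close together.

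FANCA, a core subunit that pairs with FANCG, rose from 14.6 ± 2.0 to 29.2 ± 2.1 CPM and FANCE, which contacts FANCD2, from 8.64 ± 0.76 to 13.3 ± 0.8 CPM (SD, n = 3). FANCC, a subunit that works beside FANCE and FANCF, was at 17.4 ± 0.3 CPM in the vector group and 17.1 ± 0.7 CPM in the BHLHE22 group (log2 fold change -0.03, SE 0.10, adjusted p = 0.852, with a sign that turned with unscaled library sizes, to 0.12). FANCM, the translocase that anchors the complex on DNA, had 30.7 ± 3.2 and 32.9 ± 2.1 CPM (adjusted p = 0.505). FANCG had 10.7, 13.5 and 12.5 CPM in vector and 12.8, 21.4 and 19.3 CPM in BHLHE22 libraries (log2 fold change 0.55, adjusted p = 0.0546). BHLHE22 replicate 1 lay within the vector range of FANCG, and without it the adjusted p was 0.00826; it was 0.0280 with the replicate number as a block, 0.0479 in DESeq2 and 0.0210 with unscaled library sizes. Exons of FANCA overlap those of ZNF276 on the opposite strand (1115 counts in vector and 906 in BHLHE22 libraries, against 614 and 1268 for FANCA), and those of FANCL overlap VRK2 (666 and 737, against 290 and 619). Neither neighbour was called.

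The pair that the core complex modifies and the helicase BRIP1, also called FANCJ, all rose. BRIP1 (ENSG00000136492, chromosome 17, 61681266 to 61863521), which unwinds DNA and binds BRCA1, had 15.1, 14.8 and 20.4 CPM in vector and 71.2, 72.0 and 80.5 CPM in BHLHE22 libraries. The 2 groups were far apart, with vector replicate 3 above its 2 companions. BRIP1 had the smallest p of the 36 genes, ranked 112 of the 15945 tested. The rise was 4.45-fold (log2 fold change 2.15, SE 0.14, adjusted p = 7.58e-05). FANCD2 rose from 37.9 ± 7.1 to 65.8 ± 4.2 CPM (1.74-fold) and FANCI from 58.1 ± 2.0 to 95.9 ± 10.2 CPM (1.65-fold). The ratio of FANCD2 to FANCI in the authors' deposited FPKM, which is per length, was 0.576 to 0.820 in vector and 0.705 to 0.763 in BHLHE22 libraries, so the ranges overlapped. The ratio of BRIP1 to FANCD2 was 0.523 to 0.600 in vector and 1.39 to 1.47 in BHLHE22 libraries. Both pairs, and those below, were chosen after their values were seen, and 3 libraries against 3 cannot give an exact permutation p below 0.10. FANCI shares exons with POLG on the opposite strand; POLG had 3130 counts in vector and 1970 in BHLHE22 libraries, against 2452 and 4204 for FANCI, and was itself called lower.

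Of the 6 checkpoint genes 3 rose, 1 fell and 2 were not called. ATM (ENSG00000149311, chromosome 11, 108222484 to 108369102), the kinase that answers double-strand breaks, had 128, 114 and 109 CPM in vector and 70.7, 50.6 and 68.6 CPM in BHLHE22 libraries. Each BHLHE22 library was below each vector library. The log2 fold change of ATM was -0.89 (SE 0.14, adjusted p = 0.00168), which leaves 0.541 of the vector level, and it stayed called in the 15 other settings tried, at -0.71 to -0.96. ATR, the kinase of stalled replication forks, had 32.4, 33.8 and 37.3 CPM against 39.8, 39.2 and 44.3 CPM. The groups of ATR did not overlap, but the difference was above the threshold (log2 fold change 0.25, adjusted p = 0.0743); it passed without vector replicate 3 (0.0455), with unscaled library sizes (0.0183) and with the offset for GC content and length (0.0286). The ratio of ATM to ATR in deposited FPKM was 1.26 to 1.69 in vector and 0.554 to 0.762 in BHLHE22 libraries, so the ranges did not overlap. Which kinase transcript was the more abundant in BHLHE22 libraries depends on the length used: per kilobase of the longest coding transcript the means were 4.82 CPM for ATM and 4.98 CPM for ATR, against 8.91 and 4.18 in vector libraries. NPAT, which shares the ATM promoter region and overlaps it on the opposite strand, had 1318 and 1298 counts and was not called.

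ATRIP, the partner that brings ATR to single-stranded DNA, had 5.37, 3.13 and 6.76 CPM in vector and 11.2, 9.76 and 16.2 CPM in BHLHE22 libraries (2.44-fold, SE 0.31 on the log2 scale, adjusted p = 0.0116). Its libraries were widely spread in both groups. Exons of ATRIP overlap those of TREX1 on the same strand, which had 184 and 113 counts against 213 and 549 for ATRIP. CHEK1, the kinase downstream of ATR, had 20.5, 19.0 and 18.2 CPM against 41.7, 36.8 and 49.7 CPM (2.22-fold, adjusted p = 0.000525). CHEK2, the kinase downstream of ATM, rose less, from 18.3 ± 0.5 to 26.4 ± 1.7 CPM (1.45-fold, adjusted p = 0.00464). The FPKM ratio of CHEK1 to CHEK2 was 0.598 to 0.635 in vector and 0.776 to 1.18 in BHLHE22 libraries. CHEK1 shares exons on the same strand with STT3A, which had 12537 counts in vector and 12253 in BHLHE22 libraries, against 808 and 1875 for CHEK1. Exons of CHEK2 overlap those of HSCB on the opposite strand, which had 289 and 359 counts, against 770 and 1142 for CHEK2. HSCB was not called. TOPBP1, the activator of ATR, had 68.2 ± 6.9 and 78.0 ± 7.5 CPM and overlapping groups (adjusted p = 0.177). With unscaled library sizes in edgeR the adjusted p of TOPBP1 was 0.0255.

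Within groups, single libraries tended to be high or low for many of the 36 genes. Vector replicate 3 had the highest of the 3 vector values for 21 of the 36 genes, and vector replicate 2 the lowest for 16. Among BHLHE22 libraries replicate 3 was the highest for 20. The same counts were not made over all tested genes, so the tendency cannot be called particular to these 36. The summed level of the 36 genes was 802, 780 and 850 CPM in vector replicates 1 to 3 and 1244, 1248 and 1356 CPM in the BHLHE22 replicates. Genes of DNA replication and mitosis were also higher. A list of 40 S phase and G2/M genes that holds none of the 36 summed to 2080, 1703 and 2504 CPM in vector and 4674, 4553 and 4748 CPM in BHLHE22 libraries. In both lists vector replicate 3 was the highest and replicate 2 the lowest vector library. Of the 40 genes 37 rose and none fell, with SLBP, CENPF and CENPE not called, and the median log2 fold change was 1.23; RRM2, CCNE2, GINS2 and DTL had the smallest p. The part of cell cycle state in the result on the repair genes was not tested.

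**Figure D3:**
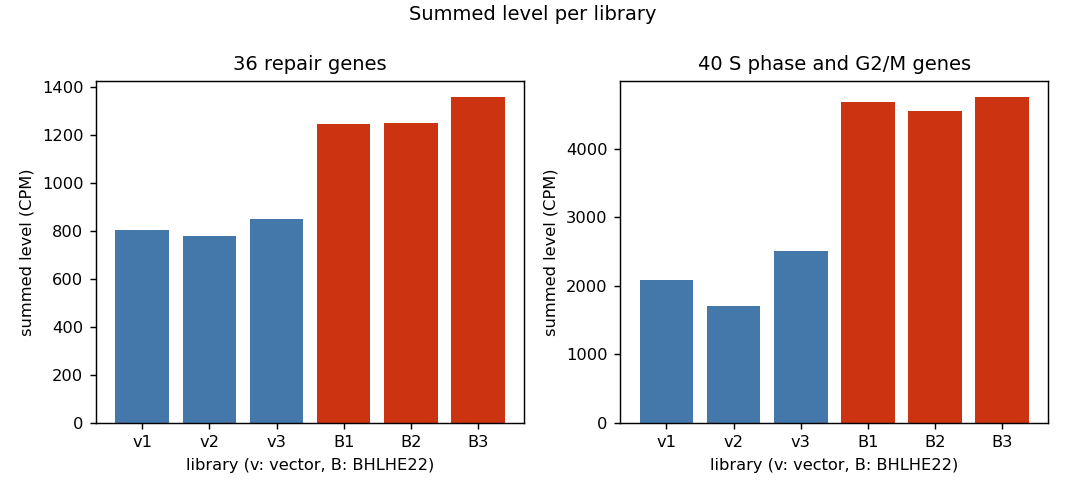
Summed level per library, in CPM, of the 36 repair genes (left) and of 40 S phase and G2/M genes that hold none of them (right); v1 to v3 are the vector and B1 to B3 the BHLHE22 libraries. In both panels the 3 BHLHE22 bars are above the 3 vector bars, and v3 is the tallest and v2 the shortest vector bar.

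Other genes of the same pathways rose, fell or were not called as follows. Of 42 accessory genes of recombination and the Fanconi pathway, 16 rose, 4 fell and 22 were not called, with a median log2 fold change of 0.27. The 47.6% called in either direction is near the 49.4% of all tested genes. By direction, 38.1% of the list rose, against 25.1% of all tested genes. The 4 that fell compare with 24.3% of all tested genes. POLQ, the polymerase of an alternative end-joining route, rose from 23.1 to 65.9 CPM (log2 fold change 1.51), DNA2, a resection nuclease, by 0.96, and RMI2 and RMI1, subunits of the BLM dissolution complex, by 2.27 and 1.3. The genes that fell, ERCC1, SWI5, RECQL5 and REV1, had log2 fold changes of -0.95, -0.55, -0.34 and -0.31; they were named after their values were seen. Of 21 tested partners in damage chromatin and checkpoint signalling, 9 rose, 3 fell and 9 were not called (57.1% called), with a median of 0.36. CLSPN, the adaptor between ATR and CHEK1, rose by 2.13, TIPIN of the fork protection complex by 1.38, the phosphatase gene CDC25C by 1.32 and H2AFX, the histone variant marked at breaks, by 1.19. RNF168, UIMC1 and ETAA1, also named after their values were seen, fell by 0.59, 0.56 and 0.34. No difference between lists was tested.

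**Figure D4:**
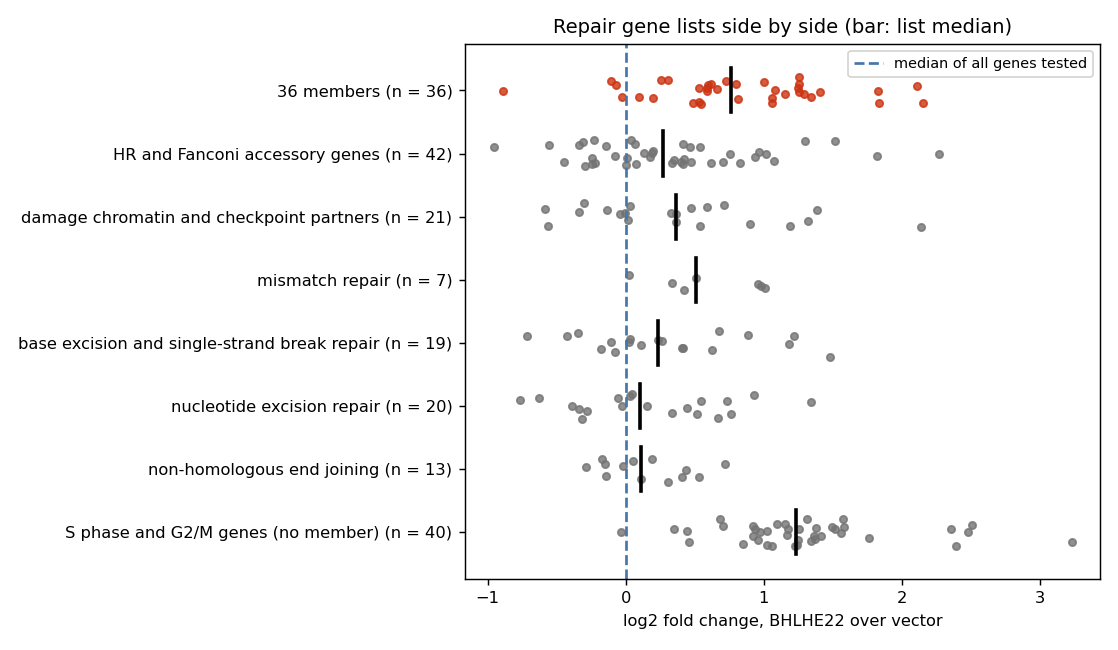
Log2 fold change of BHLHE22 over vector for each tested gene (points) of the 36 members and of 7 other lists, with list medians as black bars and the median of all tested genes as a dashed line; vertical scatter within a row has no meaning. The median is 0.76 for the members and 1.23 for the S phase and G2/M genes, and lies between 0.10 and 0.51 for the other repair lists.

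Promoter sequences are shown for the genes called higher with the smallest p, so their shared direction follows from the choice. Printed are the bases before the RefSeq start site (GRCh38.p14) that lie in no GENCODE release 29 exon. EXO1 was among the 6 genes chosen but had under 100 such bases. Capitals mark matches, on either strand, to the words searched: for E2F factors TTGGCGC, also TTCCCGC, also TTCGCGC, also TTGCCGC; for the cell cycle homology region (CHR) TTTGAA and also TTCGAA; for the box bound by NF-Y CCAAT; and the E-boxes CACGTG, also CATATG, also CAGCTG. BRIP1 lies at chr17:61863529-61863778 on the minus strand, XRCC3 at chr14:103715505-103715701 (minus), RAD54L at chr1:46247438-46247687 (plus), XRCC2 at chr7:152676166-152676391 (minus) and UBE2T at chr1:202341981-202342186 (minus).
BRIP1: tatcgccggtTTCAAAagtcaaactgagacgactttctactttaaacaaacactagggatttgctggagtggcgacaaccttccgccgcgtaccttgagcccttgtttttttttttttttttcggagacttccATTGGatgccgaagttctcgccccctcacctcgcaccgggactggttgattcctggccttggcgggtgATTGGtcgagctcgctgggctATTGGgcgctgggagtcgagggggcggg
XRCC3: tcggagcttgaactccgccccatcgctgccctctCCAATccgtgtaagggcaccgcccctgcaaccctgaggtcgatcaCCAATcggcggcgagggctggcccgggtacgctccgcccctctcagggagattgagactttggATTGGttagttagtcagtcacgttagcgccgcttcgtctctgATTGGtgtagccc
RAD54L: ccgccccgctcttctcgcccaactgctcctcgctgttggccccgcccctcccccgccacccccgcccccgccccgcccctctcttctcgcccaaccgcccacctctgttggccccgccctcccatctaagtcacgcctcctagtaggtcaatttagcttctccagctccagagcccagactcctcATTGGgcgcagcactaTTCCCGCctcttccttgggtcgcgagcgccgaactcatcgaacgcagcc
XRCC2: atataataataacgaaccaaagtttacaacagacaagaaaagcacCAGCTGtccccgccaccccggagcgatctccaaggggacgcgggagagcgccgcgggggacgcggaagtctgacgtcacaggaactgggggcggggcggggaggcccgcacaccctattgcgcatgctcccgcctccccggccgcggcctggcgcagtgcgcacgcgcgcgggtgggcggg
UBE2T: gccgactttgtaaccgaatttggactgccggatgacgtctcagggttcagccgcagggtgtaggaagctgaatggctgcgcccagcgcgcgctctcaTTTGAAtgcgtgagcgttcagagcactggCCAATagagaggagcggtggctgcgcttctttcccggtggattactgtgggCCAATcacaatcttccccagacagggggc

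BRIP1 had 3 CCAAT matches within 117 bases of the start and 1 CHR match, and UBE2T 2 CCAAT matches and 1 CHR match. XRCC3 had 5 CCAAT matches, of which 4 are in the bases shown, and RAD54L 1 CCAAT match, 65 bases before the start, and 1 E2F match, 49 bases before it. XRCC2 had only a CAGCTG. Over the 250 bases before the start, a CCAAT was present in 11 of the 24 promoters of called-higher members in the table (45.8%), in 3 of the 9 others (33.3%), and in 35.1% of the 10495 promoters of tested genes. The E2F words were present in 5 of the 24 (20.8%), in 4 of the 9 (44.4%) and in 17.5% of tested genes, and the CHR words in 2 of the 24 (8.33%), 2 of the 9 (22.2%) and 9.43%. In the promoters of the S phase and G2/M list the shares were 78.8% for CCAAT, 42.4% for E2F and 33.3% for CHR. CACGTG stood in 1 member, BRCA2, CATATG in 1, RAD51B, and CAGCTG in 5 of 33, against 8.90%, 1.04% and 12.5% of tested genes. For 28 of the 33 members the bases just after the RefSeq start occurred unbroken in a GENCODE transcript of the same gene. The other 5 were BRCA1, BRIP1, XRCC3, FANCE and FANCM. A match is a description of these letters and not of binding.

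Levels can be compared between genes only per length, and the length used matters here. The deposited FPKM implied gene lengths 0.866 to 5.06 times that of the longest GENCODE coding transcript (median 2.04). In FPKM the highest of the 36 genes was UBE2T in both groups, at 8.54 ± 1.72 in vector and 25.0 ± 1.6 in BHLHE22 libraries (SD, n = 3). The lowest was BRCA1 in vector (0.292 ± 0.016) and BRCA2 in BHLHE22 libraries (0.663 ± 0.112). Per kilobase of the longest coding transcript, UBE2T was again the highest, at 13.6 and 36 CPM per kilobase, and BRCA2 the lowest in both groups, at 0.600 and 0.842. The FPKM ratio of BRCA1 to BRCA2 was 0.602 to 0.863 in vector and 1.24 to 2.78 in BHLHE22 libraries, and that of BRCA1 to BARD1 0.231 to 0.617 and 0.291 to 0.502, which overlapped.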

How the data were processed

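RNA of 6 PC-3 libraries was analysed from 1 table in which the authors deposited whole-number read counts and FPKM per Ensembl gene. HISAT2 2.1.0, StringTie 1.3.4b, CASAVA 1.8 and edgeR appear in the submitters' processing notes beside GRCh38 and hg38, without stated roles, and no strand setting is named there. The table's control columns were matched to the vector samples. The deposited FPKM followed from the counts and a fixed length per gene and were used only to compare levels per length. Genes kept by filterByExpr were tested with edgeR 4.0.16 (R 4.3.3; TMM, robust quasi-likelihood, group only, 2-sided, Benjamini-Hochberg over 15945 genes); the SE is the log2 fold change divided by the square root of F. The common biological coefficient of variation was 17%. The members and lists were chosen with earlier results of these data known. Full values are given for called members with a log2 fold change of at least 1 and for those that fell; each other list names up to 4 called genes with the smallest p. Gene overlaps are from GENCODE release 29. Alternatives were the replicate number as a block, other scalings and filters, DESeq2 1.42.0, limma-voom (limma 3.58.1), a threshold of 0.01 and leaving out each library; the GC and length offset was added after the data were seen. The procedure was tested on simulated data. Single genes of the mismatch repair list are not reported here.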

Additional observations from a re-analysis of the deposited data

How the results depend on the processing

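Between 22 and 31 of the 36 genes were called higher, and ATM alone lower, in every one of the 15 other settings. The lowest count was at a threshold of 0.01 and the highest with unscaled library sizes. Of all 15945 tested genes, 2480 were called higher at a threshold of 0.01 and 5128 with unscaled library sizes. The median log2 fold change of the 36 genes, 0.76 as reported, was 0.90 with unscaled library sizes, where the median of all genes also shifted up, and 0.67 to 0.88 when each library was left out in turn. Of the 36 genes, 27 kept their call in every setting, and 24 of these also their sign. With unscaled library sizes PALB2, RAD52 and FANCC, none of them called, were at 0.0389, 0.0747 and 0.12; leaving out single libraries gave -0.11 to 0.0094 for RAD52 and -0.0393 to 0.0113 for FANCC (both positive without BHLHE22 replicate 3). The replicate number did not pair the libraries: deviations of same-numbered libraries correlated at 0.01, -0.03 and 0.01, and with the replicate block 28 genes rose, 1 fell, and the median was 0.76. The causes of these changes were not tested. With 3 libraries a group and counts as low as 35, genes that did not pass may still differ.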

Other observations

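Other DNA repair pathways held genes that rose and, in some, genes that fell. In base excision and single-strand break repair 7 of 19 genes rose and 2 fell (median log2 fold change 0.23). The share called in either direction was 47.4%, near the 49.4% of all tested genes. By direction, 36.8% of the list rose, against 25.1% of all tested genes. FEN1, the flap nuclease that is also used in replication, rose from 54.5 to 124 CPM and PARP1, the break sensor and target of PARP inhibitors, from 284 to 526 CPM, while the glycosylase genes NEIL3 and UNG rose by 1.48 and 1.22. MPG and XRCC1, named after their values were seen, fell by 0.71 and 0.43. In nucleotide excision repair 9 of 20 rose and 4 fell (65% called, median 0.10): the TFIIH genes GTF2H3 and ERCC2 rose by 1.34 and 0.93, DDB1 and UVSSA fell by 0.63 and 0.77, and XAB2 and ERCC3, named after their values were seen, fell by 0.32 and 0.34. In non-homologous end joining 4 of 13 rose (30.8%, against 25.1% of all tested genes). None fell, against 24.3% of all tested genes. The median was 0.11, with 0.72 for PAXX, 0.53 for XRCC4, 0.44 for DCLRE1C and 0.41 for XRCC6. Differences between these lists were not tested.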
